A study of Mus musculus with 24 samples.

Results

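The livers compared here shared 2 deletions and differed in one more, that of p62. The DKO group is labelled with hepatic loss of Atg5 and TSC1, and the p62 TKO group with hepatic loss of Atg5, TSC1 and p62. Membership was read from the genotype label and the matching column of the count table, which gave 4 DKO and 4 p62 TKO libraries, 8 of the 24 libraries of the series. The other 16 were 4 each of wild-type liver (WT), Atg5 KO, TSC1 KO and another triple knockout labelled Atg5/TSC1/Nrf2 (Nrf2 TKO). All came from liver of 2-month-old C57BL/6J mice, and polyadenylated RNA was sequenced with a stranded kit as single reads of 75 bp. The deletions are called hepatic in the labels, which name neither the Cre driver nor the exons removed and do not give sex. They also leave unsaid whether the libraries of a group were separate animals, so every p-value here measures the spread between these libraries, which may be technical.

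The protein p62, encoded by Sqstm1, is a receptor that carries ubiquitinated cargo into autophagosomes and is itself degraded there. Livers that lack Atg5, which is needed to form autophagosomes, are known to accumulate p62 in inclusions. Accumulated p62 binds KEAP1, the adaptor that sends NRF2 to the proteasome, so that NRF2 can enter the nucleus and switch on genes of glutathione synthesis, quinone reduction and drug efflux. Tsc1 restrains the growth kinase complex mTORC1, to which p62 has also been tied as a scaffold. The comparison asks what the further loss of p62 changes once Atg5 and Tsc1 are gone, and the Nrf2 TKO and WT libraries serve as reference levels.

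Levels are in CPM (counts of a gene per 1000000 counts of its library), with library sizes scaled by TMM, a method that assumes that most genes keep their level. Changes are log2 fold changes of p62 TKO over DKO with their standard error, and adjusted p-values are those of edgeR's quasi-likelihood test after the Benjamini-Hochberg procedure. A gene is said to have risen or fallen where the adjusted p was under 0.05. The 8 libraries held from 11104112 to 13007760 counts. DKO libraries had 23201 to 26848 genes counted at least once and p62 TKO libraries 21840 to 24565, ranges that overlap. Y-linked genes were counted in all 8 libraries, with sums over 4 of them of 1979 to 3361, and Xist had at most 11 counts. Nrf2 TKO replicate 2 differed from every other library, with 14173 counts of Xist and 8 over the same Y-linked genes.

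Sqstm1 itself (ENSMUSG00000015837, chromosome 11, 50199366 to 50210827 on GRCm38, minus strand) stood at 1002, 1048, 1063 and 729 CPM in DKO and at 249, 439, 363 and 774 CPM in p62 TKO, in the order of the replicate numbers. Replicates 1 to 3 of p62 TKO lay below all 4 DKO libraries, and replicate 4 lay within the DKO range. The change was -1.07 ± 0.25, adjusted p = 0.0015. Against WT, which stood at 508 to 691 CPM, p62 TKO was not called (-0.34 ± 0.25, adjusted p = 0.27), and its replicate 4 lay above every WT library. It was not called against Nrf2 TKO either (-0.53 ± 0.25, adjusted p = 0.15). The counts cover the whole gene, so reads from exons outside the deleted part are included, and they neither show nor exclude the deletion. Mrnip lies over it on the opposite strand, and whether reads were assigned by strand is not stated in the sources used here. The library labelled p62 TKO replicate 4 is kept in all values unless its omission is stated.

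Of 10 genes that control NRF2, Sqstm1 among them, 1 rose (Mafg) and 2 fell (Sqstm1 and Cul3), and 0 rose and 6 fell with total counts alone. Among all genes tested 22.3% rose and 21.5% fell, or 10.2% and 47.6% with total counts alone. These counts alone do not set the list apart. The genes of NRF2 and of its adaptor were not called. Nfe2l2, which encodes NRF2, stood at 99.9, 97.3, 92.8 and 162 CPM in DKO and at 127, 122, 126 and 116 CPM in p62 TKO, and the groups overlapped (0.12 ± 0.19, adjusted p = 0.64, -0.35 with total counts alone, adjusted p = 0.19). Keap1 stood at 39.8, 45.3, 38.6 and 39.4 CPM in DKO and at 40.7, 52.3, 49.4 and 42.2 CPM in p62 TKO (0.18 ± 0.09, adjusted p = 0.104). It was called lower with total counts alone (-0.29, adjusted p = 0.016). The other targeted genes also shifted between the 2 groups that both carry their deletion. Atg5 was 0.70 ± 0.12 higher on the log2 scale in p62 TKO (adjusted p = 7.9e-05, 0.24 with total counts alone, adjusted p = 0.104), and Tsc1 was lower by a log2 change of -0.71 ± 0.19, adjusted p = 0.0042.

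Of the 15851 genes tested, 3533 (22.3%) rose and 3413 (21.5%) fell in p62 TKO relative to DKO, 43.8% in all. A change of at least 2-fold was called in 1599 genes that rose and 1632 that fell, and one of at least 8-fold in 198 and 53. The groups did not overlap, all 4 libraries against all 4, in 21.9% of genes that were higher and 21.4% that were lower. The balance of directions rests on the scaling. With libraries scaled by their total counts alone, 1624 genes (10.2%) rose and 7544 (47.6%) fell, and the median of all genes moved from -0.02 to -0.48 on the log2 scale. Small increases are therefore relative to the typical gene.

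**Figure D1:**
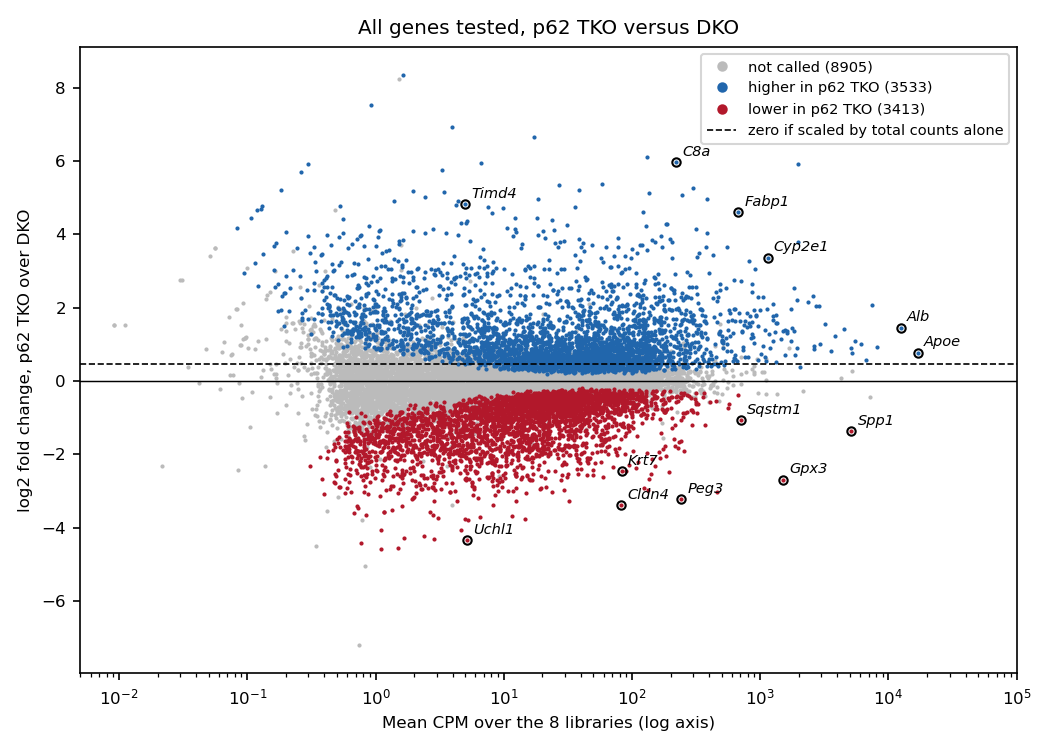
Each point is a gene, at its mean CPM over the 8 libraries (log axis) and its log2 fold change of p62 TKO over DKO. Blue points rose (3533 genes), red points fell (3413), and the dashed line marks where zero would lie if libraries were scaled by total counts alone. The larger changes, such as Cyp2e1 (3.36) and Cldn4 (-3.39), lie far from both lines.

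Genes of bile duct epithelium fell almost as a block. Of 26 cholangiocyte and ductular genes tested, 23 fell and 0 rose, against 21.5% and 22.3% of all genes tested, with a median log2 change of -1.59. The list's summed level ran from 9282 to 12416 CPM in DKO, 2892 to 4391 CPM in p62 TKO and 186 to 222 CPM in WT. In RNA of whole liver, fewer cells of a type and less RNA per cell cannot be told apart. Without p62 TKO replicate 4 the count was 22.

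Cldn4 (ENSMUSG00000047501, chromosome 5, 134945119 to 134946934 on GRCm38, minus strand), a claudin of epithelial tight junctions, stood at 192, 109.6, 164 and 134 CPM in DKO and at 27.3, 9.84, 12.4 and 7.48 CPM in p62 TKO. All p62 TKO libraries lay below all DKO libraries, a 10.5-fold difference (-3.39 ± 0.33, adjusted p = 8.6e-08). Krt7, a keratin of duct cells, stood at 149, 131, 149.7 and 135 CPM in DKO and at 45.6, 15, 19.3 and 22 CPM in p62 TKO (-2.47 ± 0.26, adjusted p = 2.9e-07). Here too the groups were apart, with p62 TKO replicate 1 the highest of its group. The same library was the highest for Krt19, another duct keratin, which stood at 75.9, 41.7, 52.3 and 48 CPM in DKO and at 38.3, 13.1, 13.8 and 10.1 CPM in p62 TKO (-1.53 ± 0.31, adjusted p = 0.00048). Spp1, the secreted phosphoprotein osteopontin, stood at 7679.7, 6557, 9305 and 6047 CPM in DKO and at 3159, 2579, 2258 and 3436 CPM in p62 TKO (-1.37 ± 0.27, adjusted p = 0.00027). Sox9, a transcription factor of the biliary lineage, fell as well (-1.50 ± 0.25, adjusted p = 5.02e-05), with no overlap between the groups. Mmp7, a matrix metalloprotease made by duct cells, fell from 414 to 1282 CPM to 23.7 to 207 CPM (-3.03 ± 0.68, adjusted p = 0.0012).

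**Figure D2:**
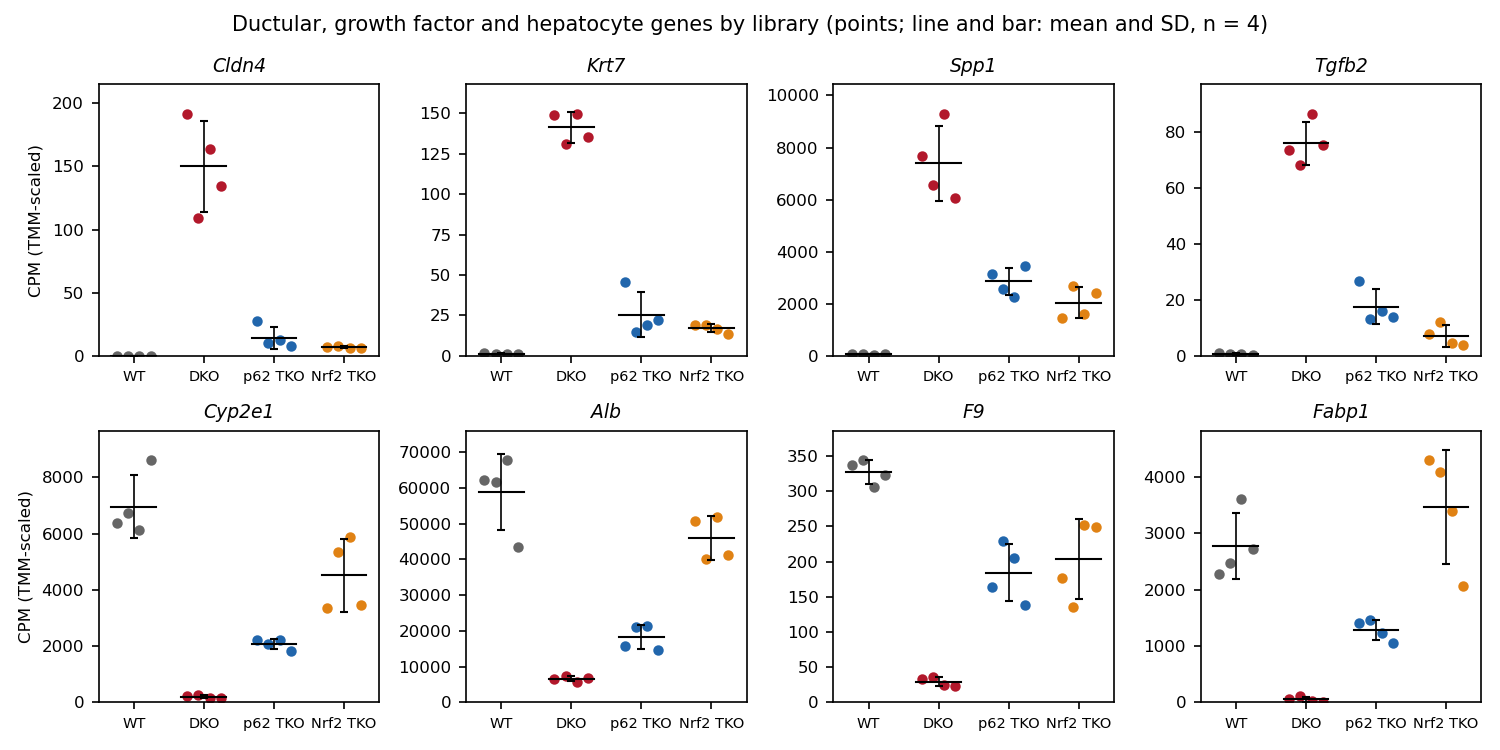
CPM of 8 genes in each WT, DKO, p62 TKO and Nrf2 TKO library (points), with the group mean (line) and SD (bar), n = 4. In the top row p62 TKO lies below DKO, and in the bottom row it lies above DKO and below WT, with no overlap in any of the 8 panels between DKO and p62 TKO.

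Growth factor and matrix programmes that act between duct cells, hepatocytes and stellate cells were lower in part. Of 20 genes of the YAP and TEAD list, transcription factors that respond to cell shape and growth, 12 fell and 1 rose (median -0.65). Tead2, one of the DNA-binding partners of YAP, stood at 24.1, 23.6, 33.5 and 21.9 CPM in DKO and at 6.51, 2.41, 3.75 and 4.75 CPM in p62 TKO (-2.55 ± 0.25, adjusted p = 7.1e-08), and the groups were far apart. The matricellular target Ccn2 stood at 55.4, 196, 122 and 177 CPM in DKO and at 87.4, 30, 44.9 and 51.6 CPM in p62 TKO (-1.36 ± 0.34, adjusted p = 0.0026). For Ccn2 the groups overlapped, because DKO replicate 1 lay below p62 TKO replicate 1.

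Among 17 ligands and receptors of the TGF-beta and PDGF families, 11 fell and 2 rose (median -0.78). Tgfb2, the isoform common in epithelium, stood at 73.8, 68.2, 86.7 and 75.4 CPM in DKO and at 26.8, 13.3, 16.1 and 14.1 CPM in p62 TKO (-2.11 ± 0.29, adjusted p = 5.04e-06). Pdgfa, a ligand for stellate cell receptors, changed by -1.05 ± 0.20, adjusted p = 0.00024. Inhbe, an activin subunit gene of hepatocytes, went the other way, from 1.05 to 7.72 CPM to 17.3 to 35.4 CPM (3.04 ± 0.51, adjusted p = 7.2e-05). In the list of EGFR and MET ligands and receptors, 8 of 18 fell and 2 rose. The receptor genes split. Erbb2 changed by -2.41 ± 0.33, adjusted p = 3.9e-06, whereas Egfr, the main EGF receptor of hepatocytes, stood at 51.1, 49.9, 41.9 and 88 CPM in DKO and at 236, 325, 397 and 198 CPM in p62 TKO (2.32 ± 0.50, adjusted p = 0.00077).

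Stellate cell and fibrosis genes moved less evenly. Of 30 tested, 12 fell and 1 rose, with a median of -0.55, and 17 fell with total counts alone. Leaving out p62 TKO replicate 2 left 6 lower, and replicate 3 left 7. Timp2, an inhibitor of matrix metalloproteases, stood at 251, 206, 283 and 284 CPM in DKO and at 122, 28.7, 59.1 and 59.5 CPM in p62 TKO (-1.93 ± 0.30, adjusted p = 3.2e-05), and Mmp2, a gelatinase, changed by -1.49 ± 0.37, adjusted p = 0.0025. The principal fibrillar collagen gene Col1a1 stood at 96.9, 112, 138 and 119 CPM in DKO and at 149, 59.3, 93 and 94.8 CPM in p62 TKO and did not pass the test (-0.23 ± 0.31, adjusted p = 0.57). Its p62 TKO replicate 1 was above every DKO library. Col5a2 was the exception in direction, at 38.7, 31.5, 35.3 and 42.5 CPM in DKO and at 233, 319, 399.8 and 171 CPM in p62 TKO (2.92 ± 0.41, adjusted p = 9.5e-06). Its level in Nrf2 TKO was higher again, from 459.9 to 1578 CPM, while WT stood at 3.41 to 5.11 CPM.

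Genes with the largest decreases in fold were nearly silent in WT, with means under 1 CPM. Uchl1, a ubiquitin hydrolase of neurons, stood at 8.23, 4.89, 11.1 and 15.1 CPM in DKO and at 0.637, 0, 0.515 and 0.701 CPM in p62 TKO (-4.34 ± 0.52, adjusted p = 1.9e-06). It overlaps an antisense gene, and its WT mean was 0. Fxyd2, a modulator of the sodium pump, changed by -4.30 ± 0.52, adjusted p = 1.1e-06, and Prss35, a serine protease-like gene, by -4.06 ± 0.58, adjusted p = 7.8e-06. Fgfbp1, a carrier of fibroblast growth factors, fell from 19.2 to 41.1 CPM to 1.16 to 2.94 CPM (-3.78 ± 0.37, adjusted p = 7.8e-08). Cdsn, a desmosome protein of cornified epithelium, and Stc1, a secreted hormone-like glycoprotein, had log2 changes of -3.74 and -3.26. The 4 libraries of p62 TKO were below the 4 of DKO for each of these genes.

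Gpx3, the secreted glutathione peroxidase, stood at 2498, 2444, 2343 and 3084 CPM in DKO and at 387, 351, 317 and 553 CPM in p62 TKO (-2.69 ± 0.28, adjusted p = 1.5e-07), against a WT mean of 5.32 ± 0.876 CPM (SD, n = 4). Nupr1, a small stress-induced nuclear protein, stood at 393, 215, 264 and 442 CPM in DKO and at 101, 34.4, 38.5 and 61.7 CPM in p62 TKO (-2.48 ± 0.33, adjusted p = 4.2e-06). Phgdh, the first enzyme of serine synthesis, changed by -3.02 ± 0.36, adjusted p = 9.4e-07. Both are in the ATF4 target list, where 7 of 24 genes fell and 5 rose (median 0.10), against 21.5% and 22.3% of all genes. With total counts alone 9 fell and 4 rose (median -0.36), against 47.6% and 10.2% of all genes. These counts alone do not set the list apart. Without p62 TKO replicate 4, 9 fell and 3 rose (median -0.04). Among those that rose was Fgf21, a hepatic hormone, at 1.31, 4.36, 2.71 and 2.36 CPM in DKO and at 7.79, 6.53, 7.58 and 26.9 CPM in p62 TKO (2.18 ± 0.64, adjusted p = 0.00801). Without p62 TKO replicate 4, where it was highest, Fgf21 did not pass (1.44, adjusted p = 0.069).

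Hepatocyte genes moved in the opposite direction to duct genes. Of 24 genes of hepatocyte identity, 20 rose and 1 fell, with a median of 1.26 (20 rose and 1 fell with total counts alone, median 0.79). The summed level of the list was 20569 to 28687 CPM in DKO, 56499 to 79240 CPM in p62 TKO and 128740 to 144500 CPM in WT. Alb (ENSMUSG00000029368, chromosome 5, 90460897 to 90476602 on GRCm38, plus strand), which encodes serum albumin, stood at 6690.0, 7339, 5783 and 6806 CPM in DKO and at 15890, 21218, 21250 and 14734 CPM in p62 TKO. Every p62 TKO library was above every DKO library, a 2.75-fold difference (1.46 ± 0.27, adjusted p = 0.00013). The hepatocyte transcription factor genes Hnf4a and Cebpa had changes of 1.14 ± 0.25, adjusted p = 0.00078, and 1.24 ± 0.14, adjusted p = 2.97e-07. Foxa1, a factor of liver and other endoderm, was the member that fell (-0.76 ± 0.25, adjusted p = 0.015), and did not pass when DKO replicate 4 (adjusted p = 0.084) or p62 TKO replicate 2 (adjusted p = 0.056) or 3 (adjusted p = 0.053) was left out.

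Hepatocytes near the central vein and near the portal tract express different enzymes, and both sets rose. In the pericentral list, 16 of 20 genes rose and 1 fell (median 2.30). Cyp2e1 (ENSMUSG00000025479, chromosome 7, 140763739 to 140774987 on GRCm38, plus strand), the ethanol-oxidising cytochrome, stood at 245, 262, 149 and 153 CPM in DKO and at 2212, 2076, 2215 and 1819 CPM in p62 TKO, a 10.3-fold difference (3.36 ± 0.26, adjusted p = 4.6e-09). All 4 p62 TKO libraries were close together and still below the WT range of 6121 to 8609 CPM. Rhbg, an ammonium transporter of cells around the central vein, had 0 counts in all DKO libraries and 96 over the 4 p62 TKO libraries. Against a floor of 3 counts over the DKO group it was at least 45.5-fold higher in p62 TKO. Glul, which encodes glutamine synthetase, changed by 1.23 ± 0.29, adjusted p = 0.0014. Nkd1, an inhibitor induced by Wnt signals, was the member that fell (-1.92 ± 0.34, adjusted p = 9.2e-05).

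Of 16 periportal genes, 12 rose and 2 fell, Sox9 among the latter (median 1.07). Cyp2f2, a cytochrome used as a portal marker, stood at 61.8, 91.2, 12.3 and 14 CPM in DKO and at 549, 797, 933 and 647 CPM in p62 TKO (4.03 ± 0.53, adjusted p = 4.03e-06). Within DKO, replicates 1 and 2 were higher than replicates 3 and 4, and all were below p62 TKO. Cps1, the entry enzyme of the urea cycle, stood at 621, 585, 391 and 787 CPM in DKO and at 1640.3, 2203, 3027 and 1417 CPM in p62 TKO (1.80 ± 0.34, adjusted p = 0.00017).

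Exported and detoxifying functions of hepatocytes followed. Of 28 genes of complement and coagulation, 27 rose and 0 fell, with a median of 1.95 (26 and 0 with total counts alone). F9, coagulation factor IX, stood at 33.3, 36, 25.4 and 22.7 CPM in DKO and at 164, 229, 205 and 138 CPM in p62 TKO (2.65 ± 0.19, adjusted p = 1.9e-09). C8a and C6, parts of the membrane attack complex, were among the largest increases of all. C8a stood at 11.7, 6.96, 6.15 and 2.96 CPM in DKO and at 420.4, 576, 589 and 161 CPM in p62 TKO (5.98 ± 0.59, adjusted p = 1.4e-07), and C6 at 9.65, 13.6, 3.91 and 3.26 CPM in DKO and at 239.9, 329, 322 and 162 CPM in p62 TKO (5.12 ± 0.60, adjusted p = 1.2e-06). In the acute phase list 21 of 26 rose and 0 fell (median 2.05). Hpx, the haem carrier hemopexin, changed by 2.07 ± 0.33, adjusted p = 3.3e-05. Saa1 and Saa2, serum amyloids of near-identical sequence between which reads may be split, varied most between libraries. Saa1 stood at 36.7, 14.5, 7.82 and 2.26 CPM in DKO and at 302, 1336, 633 and 81.2 CPM in p62 TKO (5.26 ± 1.51, adjusted p = 0.00801). Saa2 changed by 5.06 ± 1.66, adjusted p = 0.018 and did not pass without p62 TKO replicate 2 (adjusted p = 0.055), DKO replicate 3 (0.0548) or DKO replicate 4 (0.0517).

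Bile acid genes rose in 17 of 19 cases, with none falling (median 1.88). Slco1b2, an uptake transporter of the sinusoidal membrane, stood at 63.8, 85.8, 52.8 and 23.3 CPM in DKO and at 605, 602, 716 and 420.4 CPM in p62 TKO (3.38 ± 0.32, adjusted p = 4.4e-08). Abcb11, the bile salt export pump, stood at 62.8, 40, 25.4 and 17.9 CPM in DKO and at 291, 472, 445 and 278 CPM in p62 TKO (3.35 ± 0.37, adjusted p = 4.6e-07). Cyp7a1, the rate-limiting enzyme of bile acid synthesis, stood at 14.3, 17.9, 12.8 and 18.4 CPM in DKO and at 117, 84.4, 105 and 25.9 CPM in p62 TKO (2.39 ± 0.72, adjusted p = 0.011), with replicate 4 the lowest of p62 TKO and still above DKO. In the list of drug-metabolising cytochromes, receptors and esterases, 23 of 33 rose and 0 fell (median 1.63). Ces3a, a carboxylesterase with the close copy Ces3b, went from 0.943 to 10.4 CPM to 113 to 358 CPM (6.11 ± 0.72, adjusted p = 1.4e-06). Sult2a8, a bile acid sulphotransferase of male liver, changed by 5.37 ± 0.62, adjusted p = 1.1e-06. Mup20, one of the major urinary proteins, whose copies are hard to tell apart by short reads, changed by 5.90 ± 0.74, adjusted p = 2.5e-06. Of 10 genes known to be higher in male than in female liver, 7 rose and 0 fell, and of 7 known to be higher in female liver 2 rose (Cyp3a41a and Cyp17a1) and 0 fell.

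Genes of fatty acid oxidation, lipid synthesis and oxidative phosphorylation were higher too. Of 23 genes of fatty acid oxidation and PPARA targets, 20 rose and 0 fell (median 1.41). Fabp1, the liver fatty acid binding protein, stood at 58, 113, 27.7 and 12.2 CPM in DKO and at 1404, 1456, 1234 and 1055 CPM in p62 TKO (4.61 ± 0.46, adjusted p = 8.5e-08). The groups differed by 24.4-fold. Ppara, the receptor that drives this programme, changed by 2.03 ± 0.27, adjusted p = 3.6e-06. In lipogenesis 11 of 19 rose and 0 fell, or 9 and 3 with total counts alone. Scd1, the stearoyl desaturase, stood at 836, 610.2, 462 and 256 CPM in DKO and at 2208, 4299.9, 3620.2 and 2379.5 CPM in p62 TKO (2.53 ± 0.39, adjusted p = 1.8e-05). All 27 subunit genes of oxidative phosphorylation that were tested rose by modest amounts (median 0.70), and 12 did with total counts alone. Atp5b, a subunit of ATP synthase, changed by 0.66 ± 0.16, adjusted p = 0.0014, and did not pass with total counts alone (0.19, adjusted p = 0.18). The mitochondrially encoded mt-Co1 changed by 0.93 ± 0.22, adjusted p = 0.0018. Glycolysis did not share this direction under both scalings, with 7 of 19 higher and 3 lower (median 0.14), or 3 higher and 9 lower with total counts alone (median -0.32). Chaperones of the endoplasmic reticulum rose in 15 of 18 cases (median 1.05), Hspa5, the luminal chaperone BiP, by 1.27 ± 0.26, adjusted p = 0.00044.

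Among the largest increases outside these lists were Wfdc12 and Csrp3. Wfdc12, a small protease inhibitor, stood at 0.457, 0.472, 0.261 and 0.15 CPM in DKO and at 31.6, 43.9, 40 and 21.2 CPM in p62 TKO (6.66 ± 0.84, adjusted p = 3.6e-06). The DKO level was thus near that of WT, 0 to 0.808 CPM, and the Nrf2 TKO range was 2.01 to 47.7 CPM. Csrp3, a muscle LIM protein, stood at 0.628, 0.295, 0.0521 and 0.15 CPM in DKO and at 9.27, 9.21, 11.5 and 3.97 CPM in p62 TKO (4.91 ± 0.46, adjusted p = 5.8e-08). Unlike Wfdc12, it was higher still in WT, at 12.5 to 31.9 CPM, and stood at 16.4 to 28 CPM in Nrf2 TKO.

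**Figure D3:**
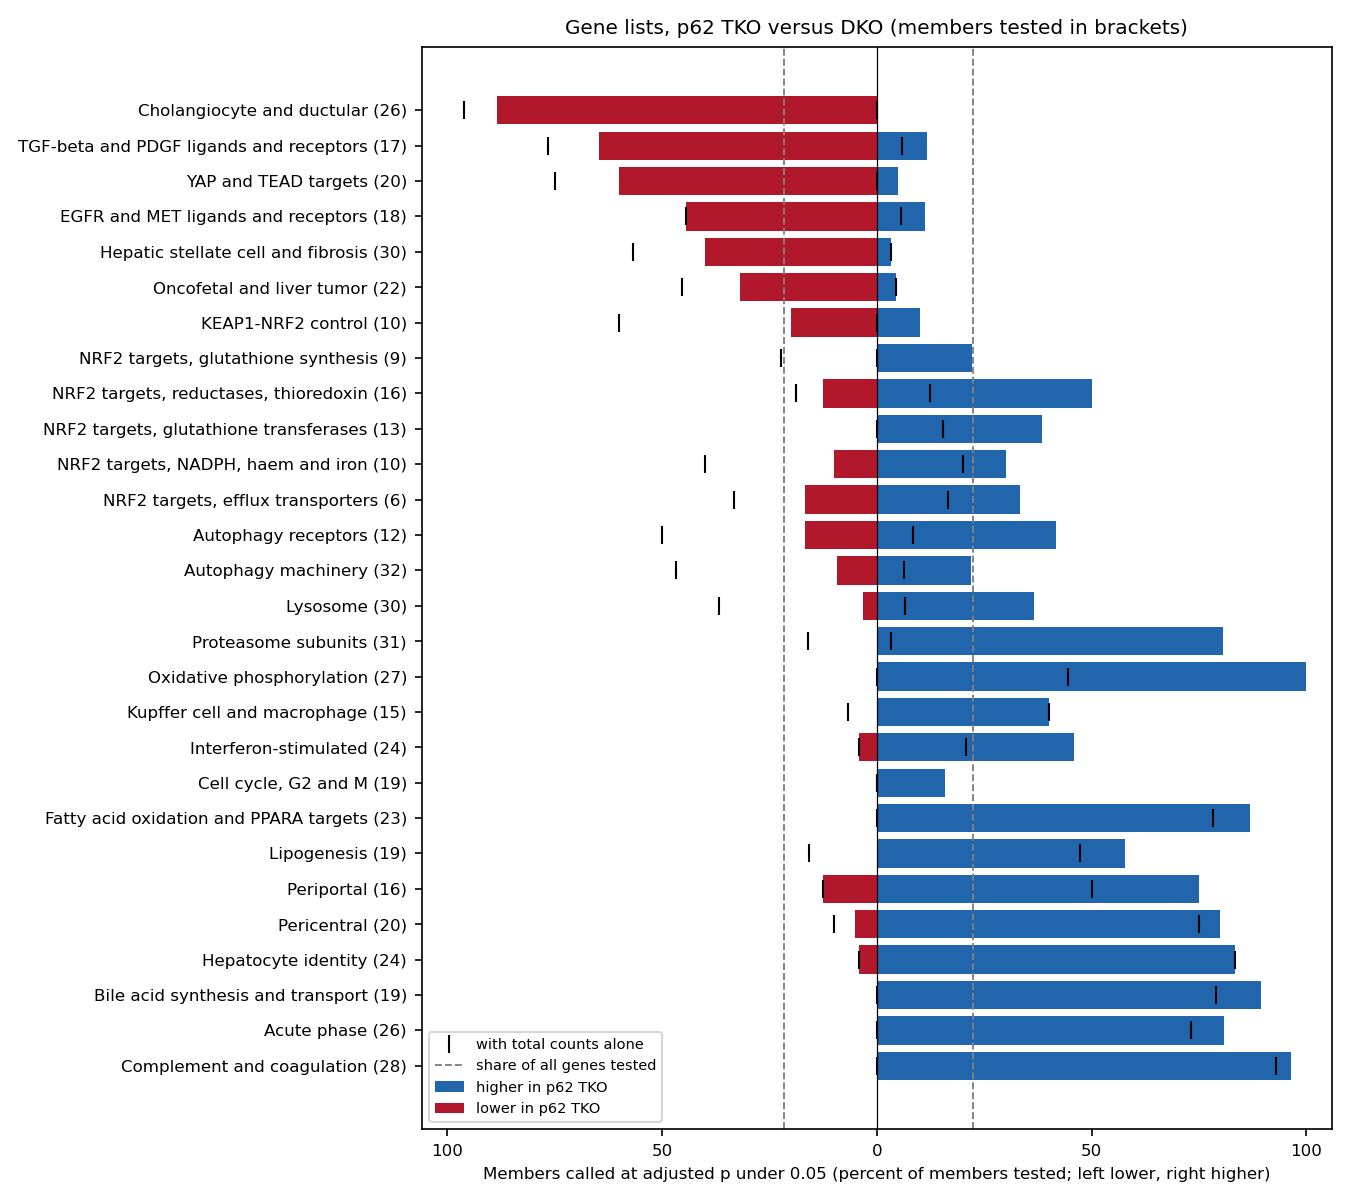
For each gene list (members tested in brackets), bars give the percent of members that rose (blue, to the right) or fell (red, to the left) in p62 TKO relative to DKO. Black ticks give the same shares with total counts alone, and dashed lines the shares among all genes tested, 22.3% higher and 21.5% lower. Duct genes lie at the left and hepatocyte, complement and bile acid genes at the right under both scalings, while ticks and bars part for the proteasome, lysosome and autophagy lists.

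NRF2 target genes showed no common decrease from DKO to the libraries labelled p62 TKO, and split by member. Of 54 targets tested in 5 functional groups, 20 rose and 4 fell (median 0.42), against 22.3% and 21.5% of all genes (median -0.02). With total counts alone 7 rose and 11 fell (median -0.03), against 10.2% and 47.6% of all genes (median -0.48). Whether more targets rose or fell thus rests on the scaling, while their median lay above that of all genes under both. Without p62 TKO replicate 4, 16 rose and 10 fell (median 0.23), and this omission was not combined with total counts alone. That library had the highest level of the 4 p62 TKO libraries in 46 of the 54 targets, which compares with 25.9% of all genes tested. It also had the highest Sqstm1 level of its group, within the DKO range, and the part of that in the target genes was not tested.

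NRF2 binds DNA with a small MAF partner at the antioxidant response element, whose core is often written TGACNNNGC. The core was searched on both strands of RefSeq promoter windows (GRCm38.p6, 250 bases before to 50 after a transcript start), and it can overlap the AP-1 motif, with which it shares its first letters. Windows were found for 48 of the 54 targets, of which 15 held a match (31.2%). Counted by window, 19 of the 70 windows of targets matched (27.1%), against 12.4% of all 32851 windows. Of the 15 genes with a match, 5 rose (Abcc2, Gclm, Mgst1, Prdx1 and Ugdh) and 1 fell (G6pdx). Among all 54 targets 20 rose and 4 fell, and among all genes tested 22.3% rose and 21.5% fell. A link between a match and the response was not tested. The windows of Gclm, Ugdh, Mgst1, G6pdx and Srxn1 are shown because they span the responses seen, from increase through no call to decrease, with matches in capitals. Gclm lies at chr3:122245307-122245606 on the plus strand, Ugdh at chr5:65435793-65436092 on the minus strand, Mgst1 at chr6:138140277-138140576 on the plus strand, Srxn1 at chr2:152105274-152105573 on the plus strand and G6pdx at chrX:74428831-74429130 on the minus strand.
Gclm: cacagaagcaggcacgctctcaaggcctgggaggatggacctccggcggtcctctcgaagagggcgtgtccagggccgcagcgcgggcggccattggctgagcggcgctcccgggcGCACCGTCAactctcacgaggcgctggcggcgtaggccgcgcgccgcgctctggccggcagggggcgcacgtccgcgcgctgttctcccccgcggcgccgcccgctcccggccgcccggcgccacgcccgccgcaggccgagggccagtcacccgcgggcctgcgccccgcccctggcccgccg
Ugdh: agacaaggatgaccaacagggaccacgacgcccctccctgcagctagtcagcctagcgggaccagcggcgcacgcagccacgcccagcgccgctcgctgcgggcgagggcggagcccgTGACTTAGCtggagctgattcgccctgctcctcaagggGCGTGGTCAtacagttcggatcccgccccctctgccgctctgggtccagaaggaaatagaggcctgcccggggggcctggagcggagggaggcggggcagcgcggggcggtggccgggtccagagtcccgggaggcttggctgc
Mgst1: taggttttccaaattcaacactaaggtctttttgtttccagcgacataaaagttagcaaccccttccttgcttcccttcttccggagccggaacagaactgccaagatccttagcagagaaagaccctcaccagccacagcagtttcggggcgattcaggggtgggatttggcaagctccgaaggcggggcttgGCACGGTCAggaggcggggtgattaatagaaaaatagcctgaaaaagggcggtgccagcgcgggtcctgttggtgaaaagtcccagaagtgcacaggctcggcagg
Srxn1: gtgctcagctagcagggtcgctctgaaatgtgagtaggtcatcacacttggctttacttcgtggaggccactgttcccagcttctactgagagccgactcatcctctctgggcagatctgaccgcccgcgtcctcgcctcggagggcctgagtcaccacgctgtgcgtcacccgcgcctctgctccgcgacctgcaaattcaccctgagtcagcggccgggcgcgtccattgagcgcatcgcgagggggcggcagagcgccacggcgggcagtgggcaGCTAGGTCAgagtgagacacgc
G6pdx: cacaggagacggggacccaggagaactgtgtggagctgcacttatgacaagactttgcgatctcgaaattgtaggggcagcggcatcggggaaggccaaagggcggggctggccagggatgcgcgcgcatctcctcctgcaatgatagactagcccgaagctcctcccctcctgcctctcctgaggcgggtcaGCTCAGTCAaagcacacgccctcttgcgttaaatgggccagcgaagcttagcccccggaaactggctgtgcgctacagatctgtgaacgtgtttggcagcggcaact
A match is a description of the letters, and a target without one in this window may carry the element elsewhere.

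In glutathione synthesis 2 of 9 genes rose and 0 fell, a share near the 22.3% of all genes. The direction turned with total counts alone (0 and 2, median -0.19), and without p62 TKO replicate 4, 1 rose and 2 fell. Gclm, the modifier subunit of the rate-limiting ligase, whose window is shown above, stood at 197, 229.6, 208 and 164 CPM in DKO and at 278, 309, 273 and 366 CPM in p62 TKO (0.62 ± 0.13, adjusted p = 0.00062). The groups were apart, but the change did not pass with total counts alone (0.16, adjusted p = 0.37). Gclc, the catalytic subunit, stood at 489, 716, 595 and 397 CPM in DKO and at 634, 740.03, 578 and 1475 CPM in p62 TKO (0.64 ± 0.32, adjusted p = 0.11), with replicate 4 at more than any other library. Slc7a11, the cystine importer, stood at 122, 228, 137 and 55.1 CPM in DKO and at 139, 161, 136 and 337 CPM in p62 TKO, and 3 of the p62 TKO libraries lay inside the DKO range (0.51 ± 0.48, adjusted p = 0.41).

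Of 13 glutathione transferases, 5 rose and 0 fell, or 4 without replicate 4 and 2 with total counts alone. Mgst1, the microsomal enzyme, rose evenly, at 993, 1088, 846 and 827 CPM in DKO and at 1865, 2688, 2348 and 2372 CPM in p62 TKO (1.30 ± 0.16, adjusted p = 1.4e-06). Its WT libraries were higher still, at 4332 to 4918 CPM. Gstm1 stood at 4296, 6204, 4436 and 3693 CPM in DKO and at 2997, 5609, 4169 and 9879 CPM in p62 TKO, and the groups overlapped (0.28 ± 0.32, adjusted p = 0.504). Gstm3 changed by 1.47 ± 0.51, adjusted p = 0.022. It did not pass without replicate 4 (1.19, adjusted p = 0.08) or with total counts alone (1.01, adjusted p = 0.0997). Gsta1 stood at 39.8, 65.3, 24.3 and 11.5 CPM in DKO and at 37.8, 68.3, 52.5 and 144 CPM in p62 TKO (1.10 ± 0.49, adjusted p = 0.077). Reads of these closely related genes may be shared between copies.

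The reductase and thioredoxin group had 8 of 16 genes higher and 2 lower (median 0.54). With total counts alone 2 were higher and 3 lower (median 0.08). Ugdh, which makes UDP-glucuronic acid and has 2 matches in its window, stood at 270.2, 417, 298 and 184 CPM in DKO and at 428, 577, 489 and 874 CPM in p62 TKO (1.02 ± 0.27, adjusted p = 0.0044). Prdx1, a peroxiredoxin, changed by 0.65 ± 0.17, adjusted p = 0.00303. Neither passed with total counts alone (adjusted p = 0.098 for Ugdh and 0.31 for Prdx1). Srxn1, which repairs oxidised peroxiredoxins, stood at 319, 431, 274 and 133 CPM in DKO and at 228, 312, 298 and 506 CPM in p62 TKO and was not called (0.22 ± 0.34, adjusted p = 0.63). Nqo1, the quinone reductase often used to read NRF2 activity, stood at 79.2, 105, 80.7 and 57.4 CPM in DKO and at 42.5, 49.6, 40 and 129 CPM in p62 TKO. Replicates 1 to 3 of p62 TKO were below every DKO library and replicate 4 was above every one. The change was -0.30 ± 0.34, adjusted p = 0.504 with that library, and -0.87, adjusted p = 0.021, without it. Akr1b8, an aldo-keto reductase, lay below DKO in all 4 libraries, at 31.4, 23, 29 and 27.1 CPM in DKO and at 7.72, 3.85, 5.59 and 8.33 CPM in p62 TKO (-2.11 ± 0.28, adjusted p = 2.9e-06).

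Targets that supply NADPH, handle haem and iron or export conjugates also split. Of the 10 genes for NADPH, haem and iron 3 rose and 1 fell (2 and 4 with total counts alone, 3 and 3 without p62 TKO replicate 4), and of 6 exporters 2 rose and 1 fell (1 and 2 with total counts alone). Among all genes 22.3% rose and 21.5% fell, so these counts alone set neither group apart. G6pdx, the first enzyme of the pentose phosphate pathway, stood at 91.3, 119, 107 and 95.7 CPM in DKO and at 36.6, 29.3, 38.8 and 81.5 CPM in p62 TKO (-1.15 ± 0.27, adjusted p = 0.0018). All 4 libraries were below DKO, replicate 4 the least so. Ftl1, the ferritin light chain, rose from 236 to 753 CPM to 884 to 1507 CPM (1.20 ± 0.25, adjusted p = 0.00047). Abcc1, a conjugate exporter, stood at 53.5, 46.9, 57.4 and 61.5 CPM in DKO and at 17.6, 10.7, 13.7 and 21.1 CPM in p62 TKO (-1.80 ± 0.26, adjusted p = 1.1e-05). Abcc4, another exporter, stood at 148, 192, 224 and 148 CPM in DKO and at 82.4, 81.1, 70.1 and 192 CPM in p62 TKO and was not called (-0.74 ± 0.33, adjusted p = 0.076). Without replicate 4 it fell by 1.19 on the log2 scale (adjusted p = 0.0043).

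**Figure D4:**
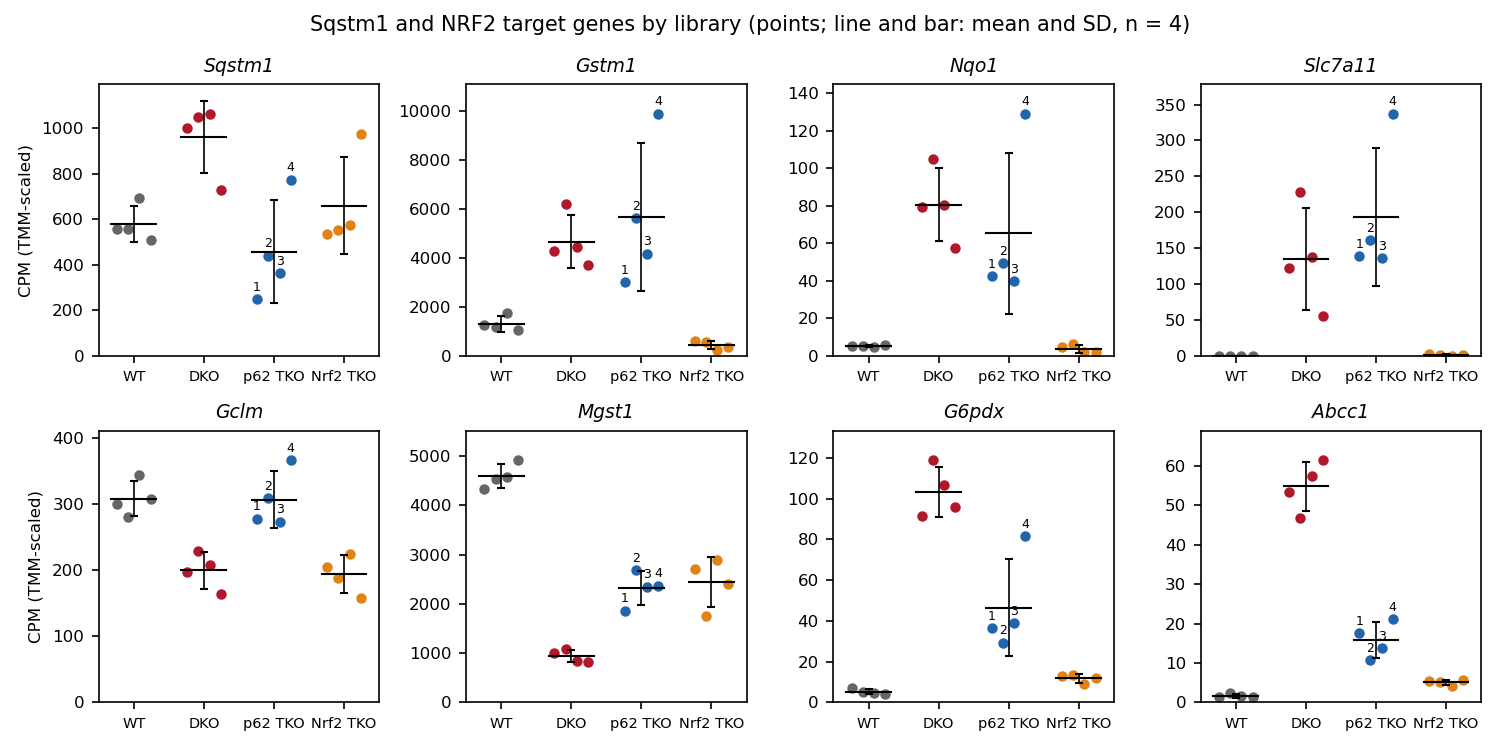
CPM of Sqstm1 and 7 NRF2 targets in each WT, DKO, p62 TKO and Nrf2 TKO library (points, with replicate numbers for p62 TKO), with the group mean (line) and SD (bar), n = 4. Replicate 4 of p62 TKO is the highest of its group for 7 of the 8 genes, Mgst1 being the exception, and G6pdx and Abcc1 are lower in all 4 p62 TKO libraries than in DKO.

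The Nrf2 TKO libraries give the level of these targets after hepatic loss of NRF2, in a direct comparison of the 2 triple knockouts. Across all genes, 1649 (10.4%) were higher in p62 TKO and 1127 (7.11%) lower than in Nrf2 TKO, 17.5% in all. Fitting only these 2 groups called 1083 and 594, and total counts alone 2987 and 549. Of the 54 targets 42 were higher in p62 TKO and 0 lower, with a median of 1.30. The count was 36 without p62 TKO replicate 4 and 40 without Nrf2 TKO replicate 2. Slc7a11 was at 0.484 to 3.07 CPM in Nrf2 TKO and 136 to 337 CPM in p62 TKO (7.20 ± 0.69, adjusted p = 1.4e-06). Gstm1 was at 250.2 to 608 CPM and 2997 to 9879 CPM (3.68 ± 0.36, adjusted p = 6.2e-07). Nqo1 was at 2.03 to 6.1 CPM and 40 to 129 CPM (4.07 ± 0.42, adjusted p = 2.1e-06). No p62 TKO library overlapped Nrf2 TKO for these 3 genes. G6pdx and Abcc1, which fell relative to DKO, were still above Nrf2 TKO (1.98 ± 0.29, adjusted p = 0.0001, and 1.63 ± 0.28, adjusted p = 0.00042). Mgst1 did not differ by the test (-0.07 ± 0.16, adjusted p = 0.802).

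Outside the targets, 0 of 24 hepatocyte identity genes were higher and 5 lower in p62 TKO than in Nrf2 TKO. Without Nrf2 TKO replicate 2, 9 were lower. Among all genes 10.4% were higher and 7.11% lower. The summed level of that list was 95578 to 129770 CPM in Nrf2 TKO, above the 56499 to 79240 CPM of p62 TKO. Complement and coagulation gave 1 higher and 3 lower of 28, and oxidative phosphorylation 0 and 11 of 27. Macrophage and mitotic genes separated the triple knockouts in the other direction. Of 14 genes of lipid- and scar-associated macrophages, 12 were higher in p62 TKO than in Nrf2 TKO, and relative to DKO 1 rose and 0 fell (median 0.12). Against DKO, total counts alone gave 0 higher and 6 lower (median -0.33), and leaving out p62 TKO replicate 4 gave 2 and 3. Gpnmb, a glycoprotein of lipid-laden macrophages, stood at 44, 110.4, 46.8 and 32.7 CPM in DKO and at 31.1, 37.9, 30.9 and 56.5 CPM in p62 TKO and at 1.16 to 3.87 CPM in Nrf2 TKO (4.07 ± 0.37, adjusted p = 3.3e-07 for the triple knockouts). Against DKO it was not called (-0.58 ± 0.30, adjusted p = 0.12), but was called lower with total counts alone (-1.03, adjusted p = 0.01), without DKO replicate 4 (-0.78, adjusted p = 0.041) and without p62 TKO replicate 4 (-0.81, adjusted p = 0.046). Trem2, a lipid receptor of the same cells, changed by 2.57 ± 0.35, adjusted p = 3.04e-05 against Nrf2 TKO and by -0.51 ± 0.30, adjusted p = 0.18 against DKO. With total counts alone the latter passed as lower (-0.97, adjusted p = 0.018).

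All 19 genes of the G2 and M phases of the cell cycle were higher in p62 TKO than in Nrf2 TKO (median 1.86). Relative to DKO 3 rose and 0 fell (median 0.75), a share under that of all genes, and 0 rose with total counts alone. The count was 1 without p62 TKO replicate 4, p62 TKO replicate 2 or DKO replicate 4, and 6 without DKO replicate 2. Mki67, a marker of cycling cells, stood at 14.4, 22, 23 and 9.18 CPM in DKO and at 23.6, 25.8, 22.9 and 30.1 CPM in p62 TKO and at 2.91 to 9.96 CPM in Nrf2 TKO. The change was 0.58 ± 0.39, adjusted p = 0.24 against DKO, and 1.97 ± 0.41, adjusted p = 0.0025 against Nrf2 TKO. Aurka, a mitotic kinase, was one of the genes that rose against DKO (0.92 ± 0.25, adjusted p = 0.0042). The oncofetal list stood apart from Nrf2 TKO as well, with 12 of 22 genes higher. Relative to DKO 7 fell and 1 rose. Peg3, an imprinted zinc finger gene, stood at 243, 314, 358 and 835 CPM in DKO and at 59.2, 43, 31.5 and 55.1 CPM in p62 TKO (-3.21 ± 0.35, adjusted p = 4.01e-07), and Igf2, a fetal growth factor, changed by -2.62 ± 0.66, adjusted p = 0.0029. Afp, the fetal albumin-like protein, was not called (-0.41 ± 0.46, adjusted p = 0.496). Duct genes gave few calls between the triple knockouts, with 2 of 26 higher and 1 lower in p62 TKO. The counts were 0 and 3 without p62 TKO replicate 1, 4 and 1 without p62 TKO replicate 2, and 5 and 1 with total counts alone.

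Resident macrophage genes rose relative to DKO. Among all genes tested 22.3% rose and 21.5% fell, or 10.2% and 47.6% with total counts alone. Of 15 Kupffer cell and macrophage genes, 6 rose and 0 fell, or 6 and 1 with total counts alone. Those that rose in the reported fit were Timd4, Folr2, Cd5l, Clec4f, Marco and Vsig4, which mark resident cells. Timd4, a receptor for apoptotic cells, stood at 0.571, 0.531, 0.104 and 0.15 CPM in DKO and at 7.5, 10.5, 11.5 and 9.35 CPM in p62 TKO (4.83 ± 0.58, adjusted p = 1e-06). Clec4f, a lectin of Kupffer cells, stood at 6.63, 13.1, 1.04 and 2.91 CPM in DKO and at 53.4, 62.1, 108 and 71.8 CPM in p62 TKO (3.65 ± 0.59, adjusted p = 5.7e-05), and its p62 TKO range overlapped the WT range of 49 to 85.2 CPM. Cd5l, a secreted macrophage protein, changed by 3.71 ± 0.57, adjusted p = 3.2e-05. The general macrophage marker Adgre1 stood at 14.9, 18.8, 14.2 and 9.43 CPM in DKO and at 24.3, 14.6, 27 and 13.2 CPM in p62 TKO and was not called (0.47 ± 0.30, adjusted p = 0.22). The summed level of the list was 489 to 809 CPM in DKO and 731 to 1164 CPM in p62 TKO, with an overlap. Of 14 sinusoidal endothelial genes, 4 rose and 1 fell (median 0.17). With total counts alone 2 rose and 3 fell (median -0.27), where the median of all genes was -0.48. Stab2, a scavenger receptor, changed by 1.71 ± 0.19, adjusted p = 3.3e-07. Neutrophil genes gave 0 calls among 8 (median 1.09), and lymphocyte genes 1 among 17 (median 0.33). The neutrophil list summed to only 11.8 to 24.6 CPM in DKO and 14.1 to 52.8 CPM in p62 TKO. At such levels 0 calls do not show that the genes were unchanged.

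Interferon-stimulated genes rose more often than they fell. Of 24, 11 rose and 1 fell (median 0.49), against 22.3% and 21.5% of all genes. With total counts alone 5 rose and 1 fell, against 10.2% and 47.6% of all genes. The number that rose was 6 without p62 TKO replicate 3 and 7 without DKO replicate 3. Bst2, the antiviral membrane protein tetherin, stood at 104, 133, 83.3 and 70.2 CPM in DKO and at 295, 384, 436 and 369 CPM in p62 TKO (1.93 ± 0.19, adjusted p = 8.6e-08). Ifit2, induced early by interferon, was the one that fell, from 61.4 to 117 CPM to 18.4 to 43.8 CPM (-1.45 ± 0.38, adjusted p = 0.0042). In the list of NF-kB and TNF signalling partners of p62, 5 of 22 fell and 2 rose, against 21.5% and 22.3% of all genes. With total counts alone 12 fell, and 3 did without p62 TKO replicate 4 or 2. Without DKO replicate 2, 4 fell and 4 rose.

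In lists of the degradation pathways in which p62 acts, changes were mostly small and their direction rests on the scaling. Among all genes 22.3% rose and 21.5% fell, or 10.2% and 47.6% with total counts alone. Of 12 autophagy receptors, 5 rose and 2 fell, Sqstm1 among the latter (1 and 6 with total counts alone). Nbr1, the receptor most like p62, stood at 144, 161, 163 and 195 CPM in DKO and at 231, 259.6, 260.4 and 226 CPM in p62 TKO (0.56 ± 0.11, adjusted p = 0.00023, 0.09 with total counts alone, adjusted p = 0.44). Optn, a receptor of mitophagy, changed by 0.49 ± 0.10, adjusted p = 0.00033 (0.02 with total counts alone, adjusted p = 0.89). Calcoco1 fell by 0.85 on the log2 scale and Ncoa4, the ferritin receptor, rose by 1.10 ± 0.25 (adjusted p = 0.0013). Both of these passed with total counts alone. Of 32 genes of the autophagy machinery 7 rose and 3 fell, no more than the shares of all genes. With total counts alone 2 rose and 15 fell. Without any single library, 4 to 8 rose and 0 to 3 fell, both lowest without p62 TKO replicate 2. For 30 lysosomal genes the counts were 11 and 1, or 2 and 11 with total counts alone. For 31 proteasome subunits they were 25 and 0 (median 0.42), or 1 and 5 (median -0.04). Psmb5, a catalytic subunit and the proteasome gene called under both scalings as higher, changed by 0.94 ± 0.17, adjusted p = 8.6e-05. In the mTORC1, TSC and TFEB list 7 of 31 rose and 4 fell, near or under the shares of all genes. With total counts alone the counts were 1 and 18. Apoe, which encodes an abundant apolipoprotein, shows the same dependence (0.77 ± 0.17, adjusted p = 0.00077, 0.30 with total counts alone, adjusted p = 0.062).

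A pair of binding proteins of insulin-like growth factors moved in opposite directions. Igfbp3 stood at 164, 149, 249.99 and 307 CPM in DKO and at 50.3, 12.6, 28.2 and 24.6 CPM in p62 TKO (-2.91 ± 0.47, adjusted p = 5.2e-05). Igfbp2 stood at 90.2, 85.7, 39.6 and 35.9 CPM in DKO and at 356, 382, 398 and 272 CPM in p62 TKO (2.49 ± 0.40, adjusted p = 4.4e-05). For both genes the DKO and p62 TKO libraries did not overlap.

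Relative to wild-type liver, p62 TKO stood between WT and DKO for the lists that moved most. Across all genes 4431 (28%) were higher and 3637 (22.9%) lower than in WT, 50.9% in all, and 8572 and 988 with total counts alone, where the median of all genes was 0.55. Of the 26 duct genes 24 were still higher than in WT (median 4.27). Krt7 was at 1.06 to 1.59 CPM in WT and changed by 4.31 ± 0.35, adjusted p = 5.4e-09. Of the hepatocyte identity genes 18 of 24 were still lower (median -0.79, or -0.27 with total counts alone, where 7 were lower and 1 higher). Alb was at 43405 to 67801 CPM in WT and changed by -1.69 ± 0.27, adjusted p = 2.2e-05. Complement and coagulation genes were lower in 23 of 28 cases, or 13 with total counts alone, where 3 were higher. NRF2 targets were higher than in WT in 35 of 54 cases and lower in 7 (median 1.14), or 44 and 3 with total counts alone, and 19 of 19 G2 and M genes were higher (median 4.01). This comparison and that with DKO share the p62 TKO libraries, so their values are given side by side and no overlap between them is counted.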

How the data were processed

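Liver RNA was sequenced in 24 libraries, and the analysis rests on 4 DKO and 4 p62 TKO libraries with WT and Nrf2 TKO as references. The authors deposited raw counts for each Ensembl gene identifier, made with Trimmomatic 0.36, HISAT2 2.1.0, HTSeq and the build GRCm38, per the submitters' processing notes. The HTSeq version, the annotation release and whether strand was used in counting are not stated in the sources used here, so a gene and its antisense neighbour may share reads.

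Symbols came from GENCODE M21, which matched 32953 of 33019 identifiers. After filterByExpr 15851 genes remained, and libraries of 11104112 to 13007760 counts (8 compared) were scaled by TMM. One mean per genotype was fitted to all 24 libraries (18 residual degrees of freedom) with edgeR 4.0.16 in R 4.3.3 by the robust quasi-likelihood method, with Benjamini-Hochberg adjustment. Standard errors are the log2 change over the root of F. The method was tested on simulated data with 50 genes changed at each size, far fewer than were called here. It called 18% of 1.5-fold, 56% of 2-fold and 94% of 4-fold changes in the right direction. Of 15518 unchanged genes it called 6. A gene not called may therefore have changed by a small fold. Precision is set by 4 libraries a group and by counting at low levels. Alternatives were DESeq2 1.42.0, edgeR with the DESeq2 size factors, scaling by total counts alone, no low-count filter, a fit of only the groups compared, a replicate block, and leaving out 1 library at a time. Figures used Python 3.11.15 and matplotlib 3.10.9. Promoter windows are RefSeq's on GRCm38.p6.

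The comparison, gene lists and naming rule were chosen with earlier results of these data known. The rule took the 4 targeted genes, the 15 largest changes each way (mean of at least 5 CPM, groups apart) and the 5 most abundant called genes each way. From each list it took up to 6 members by p and 3 by level. Not all genes that met it are reported. Krt19, Col1a1, Hnf4a, Foxa1, Nkd1, Cyp7a1, Ppara, Adgre1, Trem2, Afp, Nqo1, Srxn1 and Fgf21 were named outside it, after their values were seen.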

Additional observations from a re-analysis of the deposited data

Results flagged for a closer look

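In 12 of 200 groups of 4 libraries (100 named genes in DKO and in p62 TKO), the highest library stood apart from the other 3 by Dixon's 95% limit, which chance exceeds in about 1 of 20 groups. In p62 TKO replicate 4 this held for Nqo1 (129 CPM), Abcc4 (192 CPM), Slc7a11 (337 CPM) and Fgf21 (26.9 CPM). The first 3 are NRF2 targets, and the same library had the highest Sqstm1 level of its group.

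In p62 TKO replicate 1 it held for Krt19 (38.3 CPM), Fxyd2 (0.566 CPM) and Prss35 (1.06 CPM), all of which fell in the group as a whole. Cebpa was highest in p62 TKO replicate 2 (368 CPM). In DKO replicate 1 the same was true of Saa2 (42.7 CPM), Ces3a (10.4 CPM) and Sult2a8 (7.03 CPM), hepatocyte genes that rose in p62 TKO. Nfe2l2 was highest in DKO replicate 4 (162 CPM).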

How the results depend on the processing

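Leaving out 1 library gave 5946 to 6995 genes called between p62 TKO and DKO (3080 to 3530 higher, 2705 to 3509 lower), 7144 to 8050 against WT (4011 to 4380 higher, 3104 to 3789 lower) and 2040 to 2888 against Nrf2 TKO (1203 to 1672 higher, 749 to 1360 lower). The 749 came without p62 TKO replicate 1. With total counts alone the calls were 1624 higher and 7544 lower against DKO, 8572 and 988 against WT, and 2987 and 549 against Nrf2 TKO. A fit of only the groups compared called 1677 genes against Nrf2 TKO (1083 higher, 594 lower), and no filter on low counts called 694 lower there. The other counts stayed within 1.5 times. The replicate numbers did not pair the samples (deviations of same-numbered libraries correlated at 0.07, 0.10, -0.03 and -6e-04, and 1 of 4 was closest to its own number). With the replicate block 6889 genes were called against DKO (3501 higher, 3388 lower), 7938 against WT and 2625 against Nrf2 TKO. Of the 100 named genes, Nfe2l2 (-0.35), Keap1 (-0.29), Gstm1 (-0.18) and Srxn1 (-0.24) changed sign with total counts alone, none of them called in the reported fit. Leaving out 1 library gave -0.13 to 0.49 for Gstm1 and -0.046 to 0.47 for Srxn1, below 0 without p62 TKO replicate 4 and, for Srxn1 (-0.02), without DKO replicate 4. The causes were not tested. Counting error limits genes under 1 CPM most.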
